A study of Bos taurus with 22 samples.

Results

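Keratins, desmosomal proteins and cornified layer genes were followed in subcutaneous fat of dairy cows. They are described here by every probe set (the group of probes that reads one transcript on the array) whose single annotated symbol begins with KRT, DSC, DSG, PKP, SPRR or SPINK and a digit, or is DSP, JUP, SFN, S100A7, S100A2, LOR, IVL, FLG, TGM1, TP63, CSTA or PERP. The rule found 45 of the 24016 bovine probe sets, which stand for 34 of the 9155 genes that have a symbol of their own. No probe set carried the single symbol KRT1, TP63, DSP, LOR, IVL, FLG, CSTA or any SPRR gene, so those genes were not analysed here. By the layer or tissue each gene is known from, the members comprised 7 probe sets of 5 basal genes, 16 of 10 upper layer genes, 8 of 6 hair follicle or activated keratinocyte genes, 8 of 7 simple epithelium genes, 4 of 4 junction genes of many epithelia, and 2 of the 2 genes SPINK1 and SPINK4. KRT76, a keratin of the palate, was counted with the hair follicle or activated genes. Every symbol match was made from the array's annotation, and 43 of the 45 probe sets had a RefSeq gene record.

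The samples were dorsal subcutaneous white adipose tissue from 11 Holstein heifers at their first calving, aged 24 to 28 months and reared together on 1 farm. Each animal gave a prepartum sample at day -30 and a postpartum sample at day 14 relative to calving, so the design holds 11 prepartum and 11 postpartum arrays and asks how the onset of lactation changes adipose transcripts. Both groups are the same animals, fed to appetite, with one ration before calving and another after it; they differ in no genotype or drug treatment named in the labels. The arrays fall into 2 sets by a code at the end of the sample titles whose meaning is not stated, with both samples of 5 cows in set 1 and both of 6 cows in set 2.

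The epidermis is a layered epithelium. Its dividing basal keratinocytes make the keratin pair KRT5 and KRT14, and as the cells move up they switch to KRT1 and KRT10, take up the desmosomal cadherins DSG1 and DSC1, and finally lay down a cross-linked cornified envelope. Hair follicles add keratins of their own, such as the inner root sheath keratin KRT25, whereas simple, single-layered epithelia use KRT8 and KRT18. Fat tissue consists mainly of adipocytes, vessels, fibroblasts and immune cells and has no keratinocytes, although it lies directly under the skin.

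Levels are given as log2 of the signal plus a constant of 7.78, on which the lowest possible value is 2.96. A level belongs to its own probe set, and levels of different probe sets were not set against each other. Adipocyte genes were present on all arrays, with summed linear signals between 21155 and 30612 before calving and between 14041 and 30387 after it. The postpartum array of cow 384 stood apart, with a median rank correlation to the other arrays of 0.785 against 0.908 to 0.937 for the rest, and it had the highest summed signal of 9 skeletal muscle genes (88881). The prepartum array of cow 387 followed with a muscle sum of 56912, and the paired deviations of cow 387 did not run together (correlation -0.09, against 0.18 to 0.43 in the other 10 cows). The calls of the tested members are given with and without these cows. In bulk tissue, fewer cells of a type and less RNA per cell cannot be told apart.

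The keratinocyte genes were carried by a few prepartum arrays. The prepartum array of cow 341 was the highest of all 22 for 19 of the 45 members (42.2%), while it was the highest for 3.31% of all bovine probe sets. The prepartum arrays of cows 341 and 382 were the highest pair for 16 of the 45 members (35.6%), against 134 of the 24016 bovine probe sets (0.558%). Counting members at least 1 log2 unit above their own median, cow 341 had 18, cow 382 had 16, cow 331 had 7, cow 330 had 5 and cow 387 had 3 before calving, and each of the other 17 arrays had at most 2. Among all bovine probe sets, 1.34% were that far above their median in the prepartum array of cow 341, 1.18% in that of cow 382, 0.966% in that of cow 331, 0.70% in that of cow 330 and 2.21% in that of cow 387. The largest such share of all probe sets (7.99%) was found in cow 384 after calving, where 1 member was raised. Before calving, the log2 ratio of 3′ to 5′ GAPDH control signal, a measure of RNA integrity, was 0.58 for cow 341 and 0.25 for cow 382. It was 0.41 for cow 331 and 0.30 for cow 330. The extremes on the other arrays were -0.10 in cow 384 and 1.26 in cow 341, both after calving. The changes of cow 341 are thus measured against the array with the highest ratio, the next highest being 0.62 in prepartum cow 360.

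**Figure D1:**
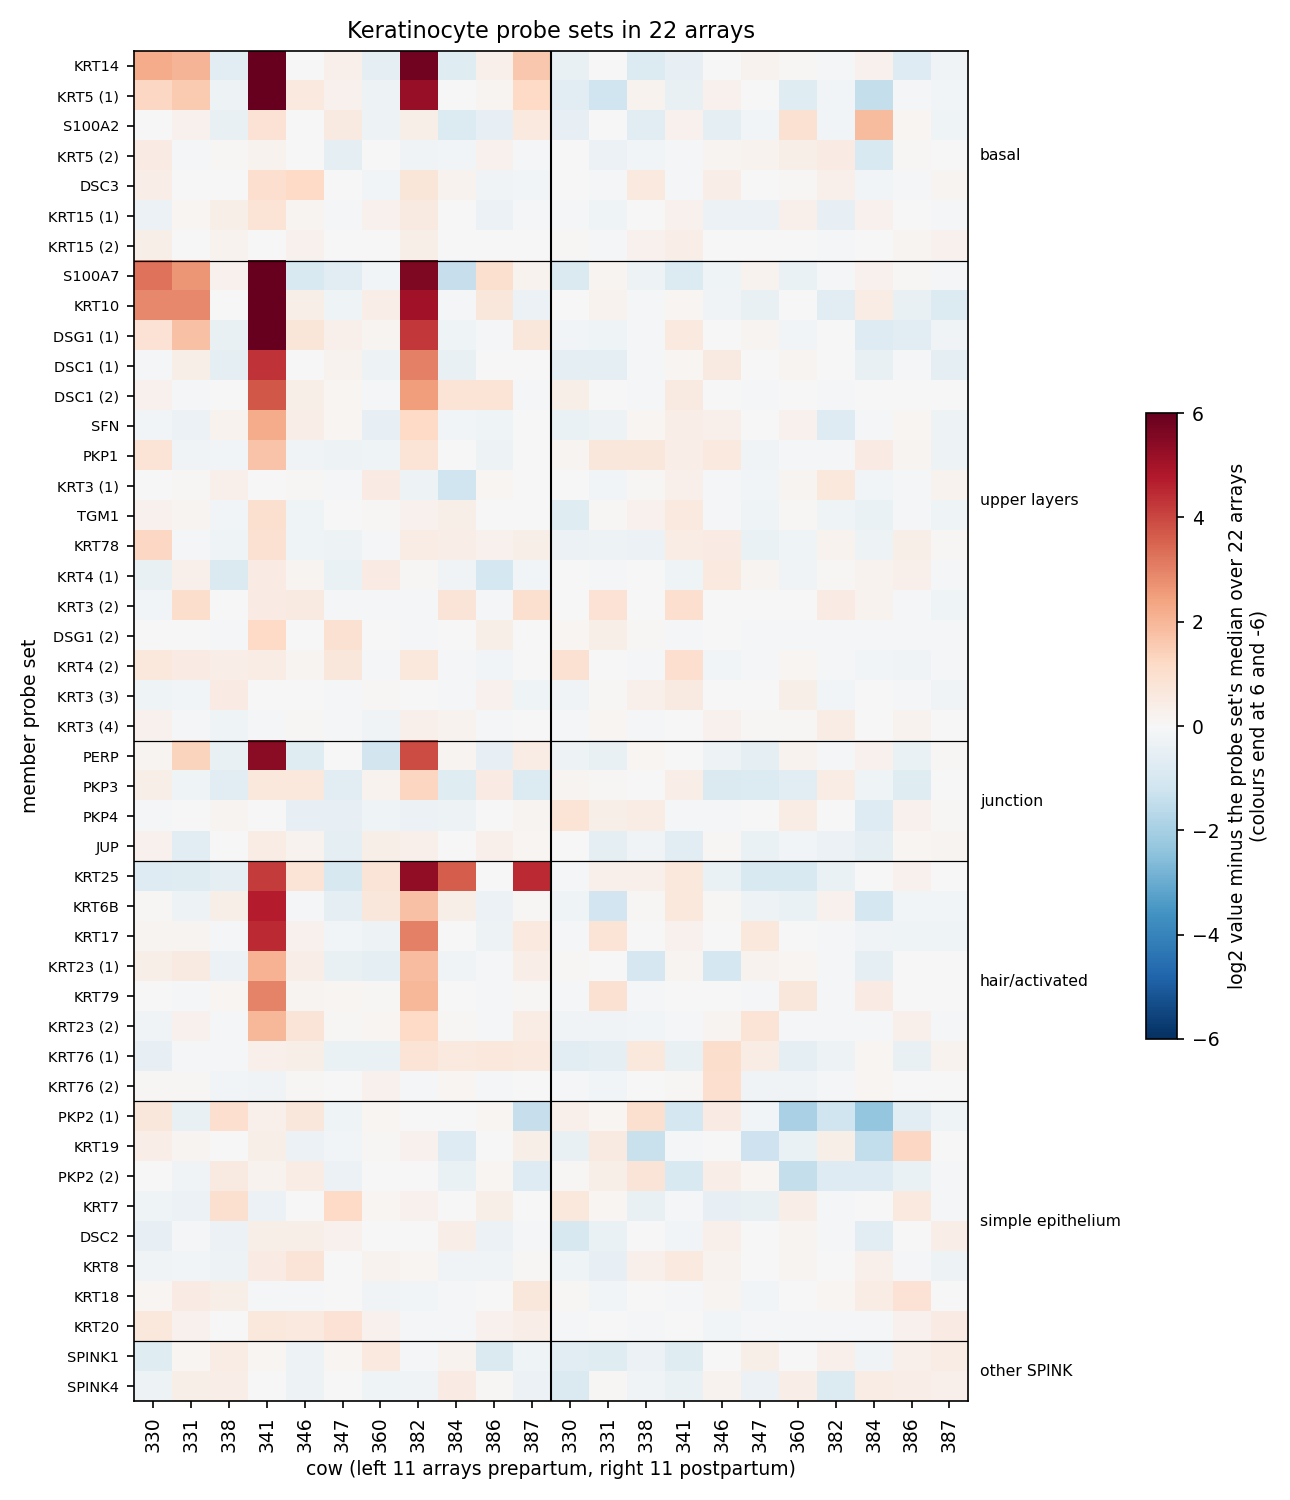
Each row is one of the 45 member probe sets, grouped by layer or tissue, and each column is one of the 22 arrays, with colour giving the log2 difference from that probe set's median over the arrays (colours end at 6 and -6). The prepartum columns of cows 341 and 382 carry most of the strong positive values, in the basal, upper layer and hair follicle rows and not in the simple epithelium rows.

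Basal keratins stood out in the same arrays. KRT14, which pairs with KRT5 in basal cells, lay at 3.15 at the lowest, 4.19 in the median and 11.33 at the highest before calving, and at 3.07, 3.81 and 4.12 after it. Its highest levels were 11.33 in cow 341, 9.68 in cow 382, 6.12 in cow 330, 5.92 in cow 331 and 5.48 in cow 387, all prepartum. Those 5 arrays lay clear of every postpartum array. Prepartum cows 347 and 386 lay just above the postpartum range, and the other 4 prepartum arrays within it.

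KRT5 gave 2 different pictures through its 2 probe sets. The one with the wide range lay at 4.24, 5.11 and 10.94 (lowest, median, highest) before calving and at 3.10, 4.38 and 4.80 after it, with 10.94 in cow 341, 9.78 in cow 382, 6.10 in cow 331, 5.78 in cow 330 and 5.75 in cow 387. The other stayed between 6.48 and 7.92 over all 22 arrays, and its prepartum value was 7.60 in cow 341 and 7.19 in cow 382. The 2 probe sets disagree, so KRT5 means the first of them from here on unless the second is named; why they differ was not tested.

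The other basal members had narrower ranges. KRT15, a keratin of basal cells and of the hair follicle bulge, ranged over 0.45 log2 units in one probe set and 1.31 in the other, whose highest values were 5.28 and 4.97 in prepartum cows 341 and 382. DSC3, the basal desmocollin, ranged from 3.0 to 4.40, with its highest value in the prepartum array of cow 346. Prepartum cows 341 (4.19) and 382 (3.91) came next. S100A2, a calcium-binding protein of basal cells, ranged from 6.57 to 9.29 and was highest in the postpartum array of cow 384, the array with the most muscle signal. Counting that KRT15 probe set, 3 of the 7 basal probe sets had the prepartum arrays of cows 341 and 382 as their highest pair, and KRT14 and KRT5 were at least 1 log2 unit above their median in both.

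KRT10, the keratin of cells that have left the basal layer, was high in the prepartum arrays of 4 cows. It lay at 6.09, 6.84 and 12.55 (lowest, median, highest) before calving and at 5.64, 6.34 and 6.90 after it. The value was 12.55 in cow 341, 11.48 in cow 382, 9.35 in cow 330 and 9.34 in cow 331, and the next array, prepartum cow 386, read 7.11. The prepartum arrays of these 4 cows were thus clear of all others, and the remaining 7 lay within or just above the postpartum range.

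S100A7, the antimicrobial protein psoriasin of the upper epidermis, picked out the same arrays. It read 11.59 in cow 341, 10.13 in cow 382, 7.79 in cow 330 and 7.17 in cow 331 before calving, and 5.48 at most in the other 18 arrays. Its postpartum levels lay between 3.67 and 4.79, and the prepartum arrays of cows 346 and 384 were lower than every postpartum one, at 3.60 and 3.17.

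DSG1 and DSC1, the desmosomal cadherins that hold upper layer cells together, were high mainly in the same pair of animals. The brighter DSG1 probe set read 10.04 in cow 341, 8.26 in cow 382, 5.78 in cow 331 and 4.88 in cow 330 before calving, and at most 4.73 elsewhere. The brighter of the 2 DSC1 probe sets read 7.91 and 6.61 in cows 341 and 382, and at most 4.10 in the other 20 arrays. The second DSG1 probe set stayed between 3.02 and 4.31, so this gene too has a probe set without the wide range.

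The other upper layer genes gave faint signals. SFN, the 14-3-3 sigma protein of stratified epithelia, read 6.57 in cow 341 and 5.54 in cow 382 before calving and at most 4.75 elsewhere. TGM1, the transglutaminase that cross-links the cornified envelope, ranged from 3.84 to 5.53, highest in prepartum cow 341. PKP1, a desmosomal plaque protein of the upper layers, read 5.08 at its highest, again in prepartum cow 341. KRT78 ranged from 3.09 to 4.71, and the 6 probe sets of KRT3 and KRT4, keratins of cornea and oral mucosa, all stayed between 3.05 and 5.20. The highest values of one KRT3 probe set, 4.40 in prepartum cow 331 and 4.36 in postpartum cow 341, and of one KRT4 probe set, 4.28 in postpartum cow 341, lay at least 1 log2 unit above its median. Loricrin, involucrin and filaggrin, the defining cornified envelope proteins, were not analysed here, so among the members the cornified envelope was read through the cross-linking enzyme TGM1.

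Junction genes split in a similar way. PERP, a desmosomal membrane protein of stratified epithelia, read 9.99 in cow 341, 8.49 in cow 382 and 5.94 in cow 331 before calving, and at most 5.03 in the other 19 arrays. JUP (plakoglobin) and PKP4, plaque proteins found in many cell types, were well above the floor on all arrays, at 7.73 to 8.86 and 6.87 to 8.48. PKP3 ranged from 3.34 to 5.50, highest in prepartum cow 382.

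No simple epithelium probe set lay 1 log2 unit or more above its median in the prepartum arrays of cows 341 and 382. KRT8 ranged from 3.61 to 4.88 and KRT18 from 3.20 to 4.24, and before calving KRT18 read 3.30 in cow 341 and 3.23 in cow 382, while KRT8 read 4.59 and 4.24 there. KRT7 and KRT19, keratins of ducts and glands, peaked in prepartum cow 347 (4.86) and postpartum cow 386 (5.83). The desmosomal genes PKP2 and DSC2, which also occur outside epithelia, were above the lowest possible value on all arrays, with PKP2 between 3.75 and 7.10 in one probe set and between 3.78 and 5.97 in the other, and DSC2 between 4.97 and 6.35. KRT20, a gut keratin, ranged from 3.06 to 4.04, read 3.84 in prepartum cow 341, and was lower after calving in 10 of 11 cows. The median simple epithelium probe set lay 0.33 log2 units above its own median in prepartum cow 341 and 0.03 in cow 382, against 0.41 in prepartum cow 346, the highest array. The pancreatic and intestinal protease inhibitors SPINK1 and SPINK4 stayed between 3.12 and 4.57. None of the 8 simple epithelium probe sets had cows 341 and 382 prepartum as its highest pair. Those arrays were the highest pair for 7 of the 16 upper layer, 5 of the 8 hair follicle or activated and 1 of the 4 junction probe sets.

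**Figure D2:**
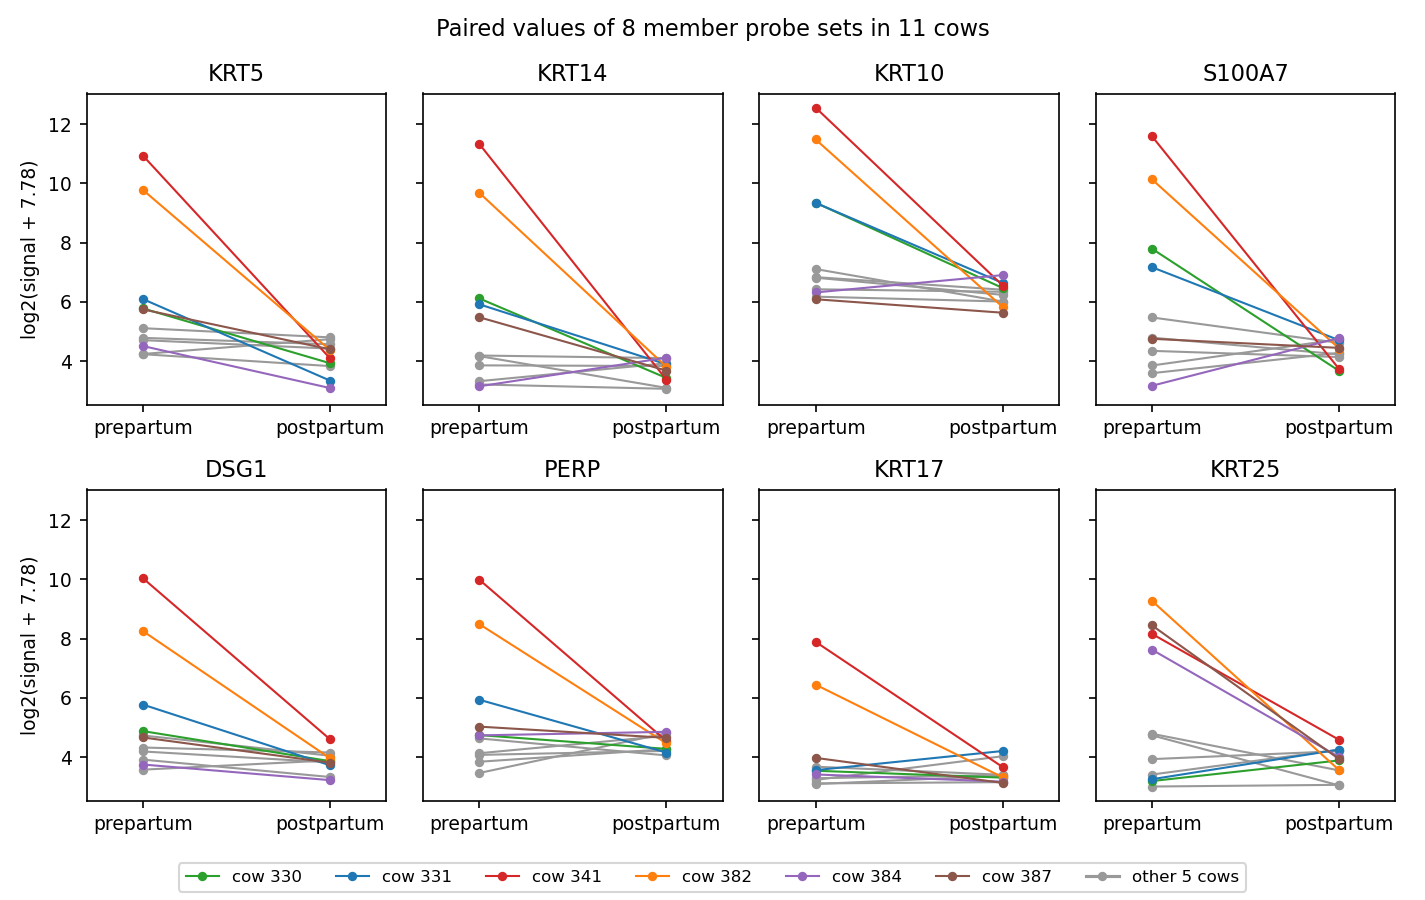
Log2 levels of 8 member probe sets in the 11 cows before (left) and after (right) calving, one line per cow, with cows 330, 331, 341, 382, 384 and 387 in colour and the other 5 in grey. The lines of cows 341 and 382 fall from the top in the epidermal panels. Those of cows 331 and 330 fall from intermediate levels for KRT10, S100A7, KRT14 and KRT5.

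Hair follicle and activated keratinocyte genes divided into 2 kinds. KRT17 and KRT6B, keratins of follicles and of activated epidermis, read 7.89 and 9.19 in prepartum cow 341 and 6.45 and 6.22 in prepartum cow 382, and at most 4.21 and 5.14 in the other 20 arrays. KRT79, a keratin of the upper follicle, read 6.25 and 5.29 in the same 2 arrays and at most 4.18 elsewhere. KRT23 read 6.53 and 6.29 there in one probe set and 5.28 and 4.48 in the other. KRT76, a keratin of the palate, stayed between 3.09 and 4.94.

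KRT25, the inner root sheath keratin, had its own set of arrays. It read 9.27 in cow 382, 8.45 in cow 387, 8.16 in cow 341 and 7.63 in cow 384 before calving, and at most 4.79 in the other 18 arrays. In the prepartum arrays of cows 331 and 330, where KRT10 was at 9.34 and 9.35, KRT25 read 3.26 and 3.20. In those of cows 384 and 387, where KRT25 was high, KRT10 read 6.32 and 6.09, inside its postpartum range. The order of the arrays by KRT25 was thus not the order by KRT10, and both genes were high together only in cows 341 and 382 before calving. The prepartum arrays of cows 387 and 384 also had summed muscle signals of 56912 and 8579, against 1416 to 1933 in those of cows 341, 382, 331 and 330; postpartum cows 384 and 386, with muscle sums of 88881 and 11000, read 4.0 and 4.21 for KRT25. The part of muscle in the KRT25 values was not tested. A keratin-associated protein of the hair shaft, KRTAP3-1, was looked up after the KRT25 values were seen. It read 7.93 in cow 382 and 6.76 in cow 387 before calving and at most 4.42 in the other 20 arrays. In prepartum cows 341 and 384, where KRT25 was also high, KRTAP3-1 read 3.47 and 3.31, below its median of 3.49.

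**Figure D3:**
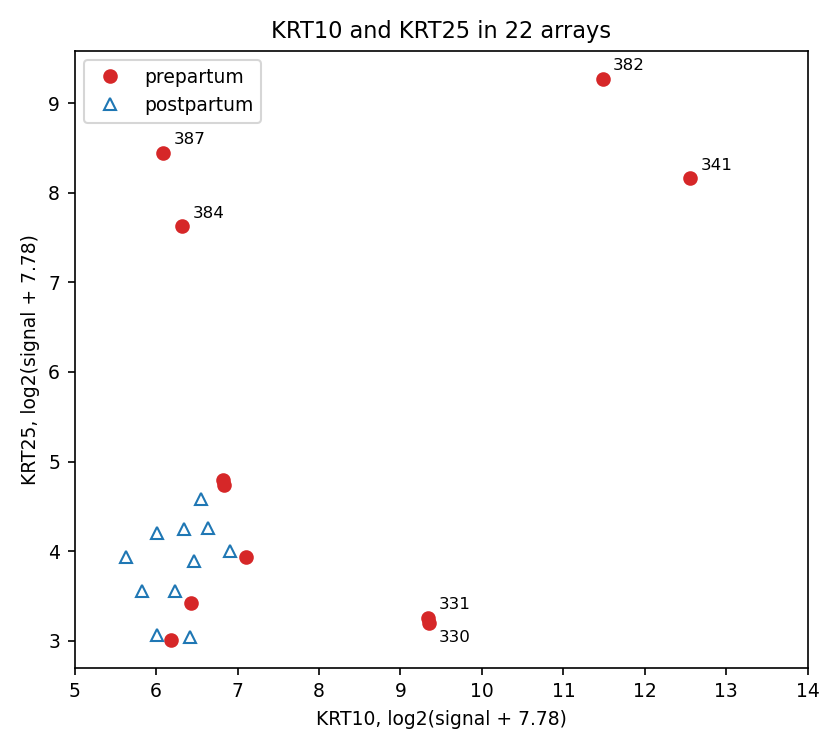
KRT10 (horizontal axis) against KRT25 (vertical axis), both as log2(signal + 7.78), with one point per array (filled circles prepartum, open triangles postpartum) and the cow number beside the 6 arrays that lie apart. Cows 331 and 330 are high for KRT10 only (9.34 and 9.35), cows 384 and 387 for KRT25 only (7.63 and 8.45), and cows 341 and 382 for both.

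To set basal against upper layer genes without comparing probe sets directly, the linear signal above each probe set's own median was expressed as a percentage of the same quantity in the prepartum array of cow 341. These percentages were computed for the 15 probe sets that lay at least 2 log2 units above their own median there. In prepartum cow 382 the basal genes KRT14 and KRT5 reached 31.5% and 44.1%, and the 6 upper layer probe sets between 28.0% (DSG1) and 46.8% (KRT10). Basal and upper layer percentages overlapped in that array. Among the hair follicle and activated genes, KRT6B reached 9.31%, one KRT23 probe set 80.0% and KRT25 223%, all outside that range, while KRT17 (33.8%), KRT79 (44.3%) and the other KRT23 probe set (43.5%) lay inside it.

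In cows 331 and 330 before calving, 2 upper layer genes differed from the basal pair. KRT10 reached 9.48% and 9.51% there, and S100A7 3.96% and 6.51%. The basal KRT14 reached 1.79% and 2.14%, and KRT5 2.33% and 1.63%, against up to 1.17% and 1.57% in the other 18 arrays. DSG1 reached 3.73% and 1.29% and PERP 3.75% and 0.276%, whereas both DSC1 probe sets (at most 1.62%) and SFN stayed within what the other 18 arrays showed. On the log2 scale KRT10 was 2.89 and 2.90 above its own median in these 2 arrays, S100A7 2.64 and 3.26, KRT14 2.04 and 2.24, and KRT5 1.55 and 1.24. The upper layer genes KRT10 and S100A7 were thus higher in these 2 arrays, relative to cow 341, than the basal KRT14 and KRT5. The other 4 of the 6 upper layer probe sets were not, apart from DSG1 in cow 331. As a group the layers did not separate: the median percentage was 2.06% for the basal and 2.59% for the upper layer probe sets in cow 331, and 1.89% and 1.46% in cow 330. Each array is a single sample, so this contrast has no replicate error within an animal, and it takes the linear signal as proportional to the transcript, which was not tested.

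**Figure D4:**
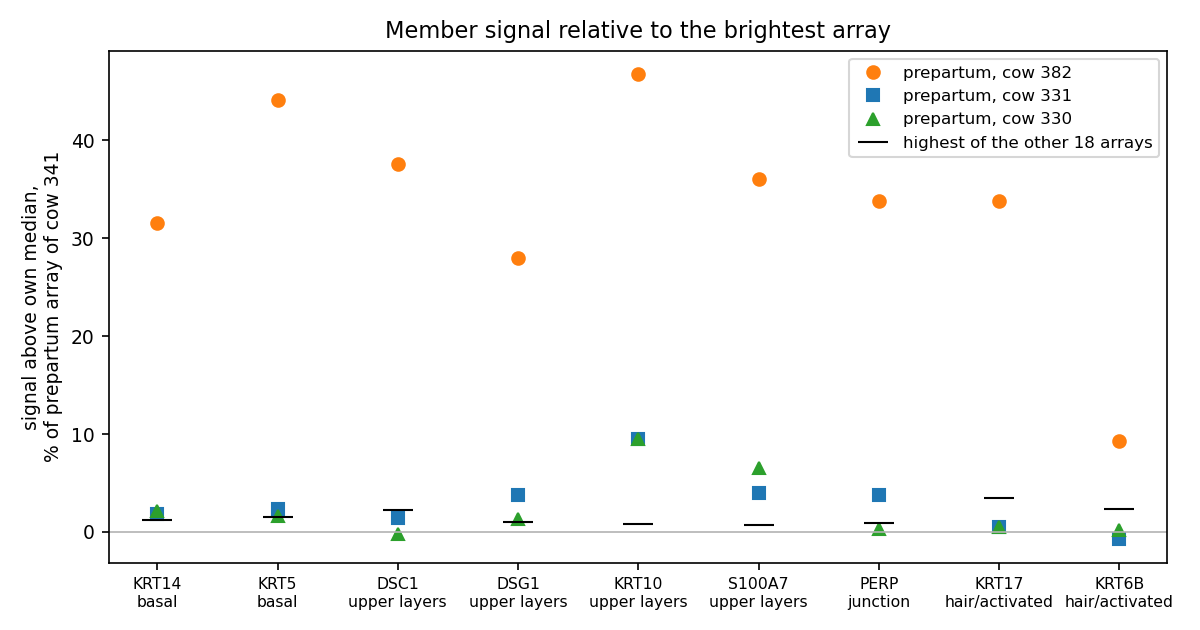
For the 9 probe sets of prepartum cow 341 with over 200 signal units above their own median there (KRT25 left out), the linear signal above the probe set's own median in the prepartum arrays of cows 382, 331 and 330 is plotted as a percentage of that in cow 341, with the highest of the other 18 arrays as a bar. In cow 382 basal KRT14 and KRT5 (31.5% and 44.1%) lie among the upper layer genes (28.0% to 46.8%), while in cows 331 and 330 KRT10 lies highest of these (9.48% and 9.51%).

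The change from before to after calving was tested with limma on log2 levels with the cow as a block, over the 14410 probe sets whose mean level reached the 40th percentile. Of the 45 members, 10 passed that filter and 35 did not, and a member that is low on most arrays could pass only through the arrays in which it is high. KRT5 and S100A7 did so, with postpartum means of 4.15 and 4.34, below the filter of 5.05, so their p-values and their place in the counts rest partly on that choice. The second PKP2 probe set was not low on most arrays (median 5.20). Its mean was also below the filter after calving (4.95) and above it before (5.16), so the same limit holds for it. By limma with Benjamini-Hochberg adjustment, 494 of the 14410 probe sets (3.43%) were called at an adjusted p under 0.05, 208 higher and 286 lower after calving. None of the 10 tested members was among them, and none was by an exact sign-flip test over cows with the same adjustment, which called 285 probe sets. At an unadjusted p under 0.05 limma had 6 of the 10 members, 5 lower and 1 higher after calving, against 19.8% of all tested probe sets. The exact sign-flip test had 4 of the 10 members at that level, likewise against 19.8%. KRT5 and S100A7 are 2 of the 5 lower members of the limma count, and KRT5 is also among the 4 of the sign-flip count. Nothing is read from either count.

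KRT5, KRT10 and S100A7 had the largest mean changes of the 10 tested members. KRT5 was 1.85 log2 units lower after calving (SE 0.59, lower in 10 of 11 cows, limma adjusted p = 0.0974, or 0.136 with no filter). KRT10 was 1.77 lower (SE 0.57, lower in 10 of 11 cows, limma adjusted p = 0.102, or 0.141 with no filter), with a standard deviation of 2.27 between cows. The changes of KRT10 were -6.0 in cow 341, -5.66 in cow 382, -2.88 in cow 330 and -2.70 in cow 331, and lay between -1.10 and 0.58 in the other 7 cows. S100A7 was 1.72 lower (SE 0.75, lower in 8 of 11 cows, limma adjusted p = 0.221, or 0.290 with no filter). The mean changes of these genes were therefore made mostly of 4 animals.

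Leaving out those 4 cows, which were chosen for these very values, shows how far the means rest on them. Without cows 330, 331, 341 and 382, KRT5 was 0.50 lower, KRT10 0.32 lower and S100A7 0.18 higher after calving, and the smallest adjusted p of any member by limma was 0.508. Over all tested probe sets the same step left 6 calls.

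Among the other tested members, the plaque protein JUP was 0.31 lower after calving (SE 0.11, lower in 8 of 11 cows, limma adjusted p = 0.137). PKP4 was 0.28 higher (SE 0.11, higher in 8 of 11 cows, limma adjusted p = 0.186). The 2 PKP2 probe sets were 0.60 and 0.21 lower (limma adjusted p = 0.243 and 0.601, or 0.322 and 0.691 with no filter) and DSC2 was 0.12 lower (0.666). The second KRT5 probe set differed by -0.02 and S100A2 by 0.02 (limma adjusted p = 0.959 and 0.975), and both changed sign under other settings.

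Cows 384 and 387, with the muscle-rich arrays, affected which members were called. Without both, limma called 1070 of the 14410 probe sets (7.43%) and 2 of the 10 members. PKP4 was then 0.40 higher after calving (SE 0.09, limma adjusted p = 0.0189) and KRT10 2.18 lower (SE 0.60, limma adjusted p = 0.0444). KRT5 (1.95 lower, limma adjusted p = 0.0973), S100A7 (2.25 lower, 0.104) and JUP (0.32 lower, 0.118) were not called. Without cow 384 alone limma called 969 of the 14410 probe sets and 1 of the 10 members, PKP4, at 0.35 (limma adjusted p = 0.0374).

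**Figure D5:**
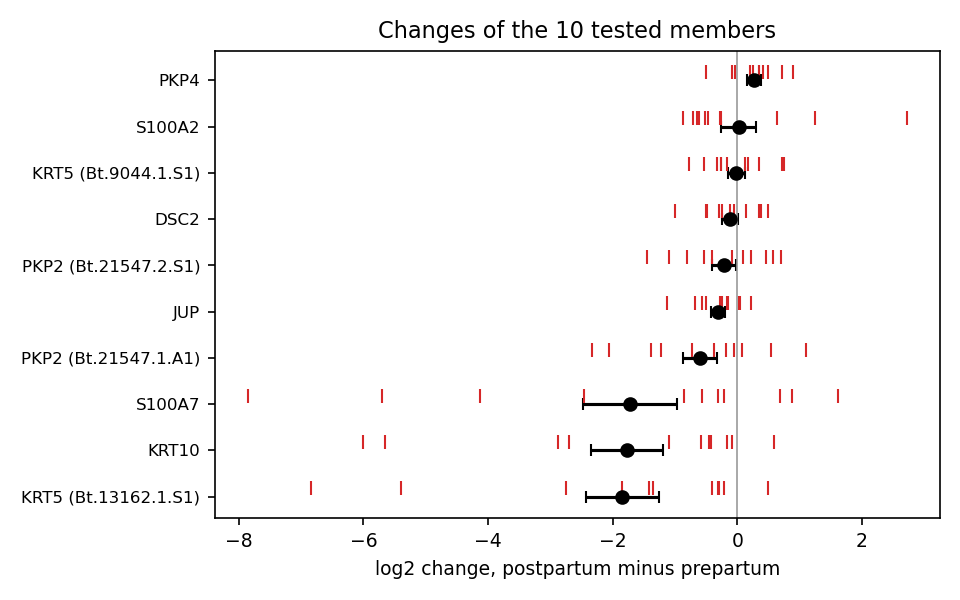
Postpartum minus prepartum change in log2 level of the 10 members that passed the filter, with the limma mean change as a dot, its standard error as a bar and the 11 cows as ticks. For KRT5, KRT10 and S100A7 the ticks of a few cows lie far below the rest (for KRT10 down to -6.0), whereas those of JUP and PKP4 lie between -1.12 and 0.89.

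Over all 24016 bovine probe sets, with no filter on level, every member could be tested. Limma then called 379 probe sets (1.58%) and none of the 45 members, while 13 members, 12 of them lower after calving, had an unadjusted p under 0.05, against 14.9% of all. The mean change was below 0 for 36 of the 45 members (80%) and for 48.6% of all bovine probe sets, and the median change was -0.22 over the members and 0.01 over all. Among members outside the filter, KRT14 was 1.83 lower (limma adjusted p = 0.226), KRT25 1.59 lower (0.220) and DSG1 1.42 lower (0.145, lower in 10 of 11 cows). The KRT25 mean includes changes of -3.62 in cow 384 and -4.51 in cow 387, the cows with the muscle-rich arrays. PERP was 0.91 lower (limma adjusted p = 0.441), KRT6B 0.84 lower (0.235) and KRT17 0.64 lower (0.490). By role the median of the mean changes was -0.19 over the basal, -0.23 over the upper layer, -0.47 over the hair follicle and activated, -0.19 over the simple epithelium and -0.28 over the junction probe sets. The upper layer group included the faint KRT3 and KRT4 probe sets, and the hair follicle and activated group those of KRT76.

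The 2 array sets were compared in their postpartum change. The difference of the change between sets was called by limma for none of the 14410 probe sets (0%) and none of the 10 members, with 516 (3.58%) and none of the members at an unadjusted p under 0.05. Within set 1, which holds cows 341 and 331, KRT10 was 1.88 lower after calving, and within set 2, which holds cows 382 and 330, it was 1.68 lower. KRT5 was 1.94 lower in set 1 and 1.77 lower in set 2. Neither gene was called within a set. In sets 1 and 2 the limma adjusted p was 0.265 and 0.450 for KRT10, and 0.321 and 0.355 for KRT5.

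Genes that run closely with KRT10 over the 22 arrays are given as a description, since the 2 arrays of a cow share the animal and the coefficients are set largely by the 4 arrays that lie apart. Among members the Pearson correlation was 0.957 for S100A7, 0.935 for KRT14, 0.920 for DSG1, 0.892 for KRT5 and 0.882 for PERP. Without the prepartum arrays of cows 341 and 382 these were 0.830, 0.720, 0.654, 0.501 and 0.425. A coefficient of 0.8 was reached by 17 other probe sets, 9 of them members. The rest of these 9 fell further without the same 2 arrays. KRT23 then had 0.363, the 2 DSC1 probe sets 0.232 and 0.104, and KRT17 0.075.

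Outside the members, the 10 named genes most like KRT10 were SRP68, DMKN, LOC100847724, ELF5, BNIPL, ELOVL4, FGFBP1, LYPD3, SPTSSB and IRX3, with coefficients from 0.979 down to 0.744. DMKN (dermokine, a secreted epidermal protein) had 0.855 and read 8.13 and 6.91 in prepartum cows 341 and 382. Without those 2 arrays its coefficient was 0.401. ELOVL4, which makes the very long fatty acids of skin ceramides, had 0.781, or 0.088 without those 2 arrays, and read 7.16 and 6.58 in them. IRX3, a homeobox factor, kept 0.728 without those 2 arrays and was the only one of the 10 that passed the filter. Chosen here for its likeness to KRT10, it was called lower after calving, at -0.70 (limma adjusted p = 0.0113), but not by the exact sign-flip test (adjusted p = 0.0698), not within either array set alone (limma adjusted p = 0.140 and 0.224) and not without the 4 cows (0.279).

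The closest, SRP68, is annotated as a subunit of the signal recognition particle, which all cells use. Its most KRT10-like probe set had a coefficient of 0.979, or 0.924 without cows 341 and 382 prepartum, and read 12.08 in cow 341, 10.68 in cow 382, 8.06 in cow 331 and 7.83 in cow 330 before calving, with a median of 3.22. A second SRP68 probe set, looked up after those values were seen, stayed between 6.19 and 7.23. The 2 probe sets therefore do not read alike. RefSeq places EVPL, which encodes the cornified envelope protein envoplakin, directly beside SRP68, and which transcript the first probe set reads was not tested.

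Other epidermal genes, from lists of basal, barrier and regulatory genes that hold no member, were measured in part. Of these, 6 of 11 basal and hemidesmosome genes, 8 of 28 barrier genes and 18 of 25 epithelial regulators and junction genes had a probe set, and 3, 2 and 6 of them passed the filter. None of those passed the test in either direction. CDH1 (E-cadherin) came nearest, at -0.60 (SE 0.19, limma adjusted p = 0.0895). COL17A1, a hemidesmosome collagen, read 6.14 and 5.98 in prepartum cows 341 and 382 and at most 4.27 elsewhere in one probe set, but 3.98 and 4.94 in its other probe set, which reached 5.28 in prepartum cow 387. Those arrays were the highest pair for 1 of the 15 basal list probe sets, 3 of the 12 barrier and 7 of the 24 regulator probe sets. The median basal list probe set lay 0.02 and 0.05 log2 units above its own median there. The median barrier list probe set lay 0.96 and 0.60 above, and the median regulator list probe set 0.86 and 0.51. ESRP1, an epithelial splicing factor, read 7.06 and 5.46 there and at most 4.79 elsewhere. AQP3, the water channel of basal keratinocytes, was highest in prepartum cow 341 at 8.73, with postpartum cow 346 next at 8.34.

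Markers of other skin and gland cells were read beside these. Of 7 melanocyte genes measured, TYRP1, a pigment enzyme, was highest in prepartum cow 341 at 5.26, while the summed melanocyte signal was 904 there and 818 in cow 382, between the prepartum extremes of 550 and 1008. The pigment cell gene PMEL was called 1.69 higher (limma adjusted p = 0.0031) and the receptor KIT 0.91 lower after calving (0.0056). The 2 sweat gland genes measured, AQP5 and PIP, had a summed signal between 2.93 and 19.8 on all arrays, and the Langerhans cell genes of the list were not analysed here. Of 5 mammary epithelium genes, the milk protein genes CSN1S1, CSN3 and LALBA stayed at or below 4.77 on all arrays, while the epithelial factor ELF5, also among the genes most like KRT10, read 6.51 and 5.07 in prepartum cows 341 and 382. CSN2 lay between 8.53 and 9.64 in one probe set and at or below 4.90 in its other 2. Among 5 sebaceous genes, only MGST1 was called, at 1.20 lower after calving (limma adjusted p = 0.0343). The median of the mean changes over the 5 sebaceous probe sets was 0.15, in the other direction. The part of these cells in the member results was not tested.

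On the chromosomes, members that stood out lay next to members that did not. In the RefSeq gene order DSG1, DSC1, DSC2 and DSC3 follow one another, and of these DSG1 and DSC1 had ranges of 6.81 and 4.93 log2 units over the arrays while DSC2 and DSC3 had 1.37 and 1.41. KRT15 and KRT19 stand side by side with ranges of 1.31 and 2.72, and KRT14, 2 genes further on, had 8.26. KRT5 and KRT6B lie 2 genes apart with 7.84 and 5.86, in the same keratin cluster as KRT8 and KRT18 with 1.27 and 1.04.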

How the data were processed

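Total RNA of each sample was hybridised to 1 Affymetrix bovine array. The authors deposited 1 linear signal intensity per probe set, summarised with MAS5, per the submitters' processing notes; the program's version, its settings and any genome build: not given in the sources used here. Deposited intensities of every array have the same 2% trimmed mean (125.03), so they had been scaled. Precision is limited by the number of arrays.

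After 112 control probe sets were left out, levels were log2(signal + 7.78), the constant being the 20th percentile of an array's signals, in the median array. Probe sets with a mean level of at least 5.05 (the 40th percentile) were tested with limma 3.58.1 (R 4.3.3, intensity trend, cow as a fixed block, Benjamini-Hochberg over all tested). An exact sign-flip test over cows was an alternative. The block follows the labels, in which cow numbers pair the arrays; within-cow deviations correlated at 0.18 to 0.43 in 10 cows and at -0.09 in cow 387. On simulated data 88% of changes of 1 log2 unit and 59% of 0.5 were recovered, with 7 false among 154 calls. The simulation used probe sets that passed the filter, with independent normal errors and the same change in every cow. Its recovery therefore does not hold for members outside the filter or for members whose change rests on a few cows. Nothing in the labels says whether the RNA was extracted more than once, so the error is that between cows.

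Named genes were all members called, the 4 widest-ranging members of each role, the classical keratinocyte genes, the 10 genes most like KRT10, and called or widest-ranging genes of the epidermal lists. The members and lists were chosen with earlier results of these data known. Gene names came from the array annotation, and gene order from RefSeq's ARS-UCD2.0 table. No sequences are shown.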

Additional observations from a re-analysis of the deposited data

How the results depend on the processing

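The number of members called after calving was 0 in the fit with the cow as a block, and became 1 with array weights (PKP4), 2 without cows 384 and 387, 1 at an adjusted p under 0.10 (KRT5), and 0 to 1 when each cow was left out in turn. Without the cow block (no pairing) limma called 0 members and 338 probe sets, and with the cow as a random effect 0 and 708. The count over all probe sets (494) became 1076 with array weights, 291 in an ordinary paired test, 69 within set 1 and 0 within set 2 (1526 there at an unadjusted p under 0.05), 1070 without cows 384 and 387, 6 without cows 330, 331, 341 and 382, and 1048 at an adjusted p under 0.10. Leaving out single cows gave 242 to 969 (263 without cow 341, 314 without 347, 265 without 360, 280 without 330, 247 without 346, 242 without 382 and 969 without 384). The causes were not tested.

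Of 1011 values for 47 single probe sets, 56 in 17 probe sets had the other sign. Of these, 18 were in tested members, given next, and the rest in probe sets outside the filter, such as KRT8, KRT18, PKP1 and, without cows 330, 331, 341 and 382, PERP (0.24) and DSC1 (0.059). The second KRT5 probe set (-0.02) became 0.066 with array weights, 0.050 within set 1, 0.050 without cows 384 and 387, 0.028 without cows 330, 331, 341 and 382, and ran from -0.096 to 0.057 without single cows. S100A2 (0.02) became -0.0034 after quantile normalization, -0.17 with array weights, -0.13 within set 1, -0.18 without cows 384 and 387, and ran from -0.25 to 0.11. PKP4 was called with array weights too (0.35, adjusted p = 0.0253). DSC2 became 0.012 and S100A7 0.18 without the 4 cows. IRX3 was not called within set 1 (-0.61, adjusted p = 0.140) or set 2 (-0.77, 0.224), without the 4 cows (-0.54, 0.279) or by the exact sign-flip test (0.0698). Members near the lowest possible value have little room to fall, which limits what their changes can show.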
